A study of Mus musculus with 145 samples.

Results

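The 8 genes described here are Kit, Stra8, Sohlh1, Sohlh2, Neurog3, Sox3, Upp1 and Dmrtb1, a set of genes linked to the exit of spermatogonia from the stem cell state. They are given by name, and all 8 were found among 24615 genes of the STRT-seq table and among 17668 genes of the scTrio-seq2 RNA tables. They were followed through 14 clusters that the authors drew in a culture of spermatogonial stem cells (SSCs) turning into germline-derived pluripotent stem cells (gPSCs), and through samples of the same culture treated with 5 chemicals. The question for each comparison was how the genes of spermatogonial differentiation behave in the cells that keep the SSC state, in the side branches with meiotic or neural genes, and in the reprogramming branch.

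In the testis, a spermatogonial stem cell first becomes a progenitor and then, under retinoic acid, a differentiating spermatogonium. Neurog3, a basic helix-loop-helix factor, and Sox3, a factor of the SOXB1 family on the X chromosome, mark progenitors, and Upp1, uridine phosphorylase 1, is a metabolic enzyme used as a transcript of the same stage. Sohlh1 and Sohlh2 are germ cell basic helix-loop-helix factors that drive differentiation. Kit is the receptor tyrosine kinase that differentiating spermatogonia carry. Stra8 is induced by retinoic acid and acts at differentiation and at meiotic entry, and Dmrtb1 (also called Dmrt6) acts in differentiating spermatogonia at the step to meiosis. Kit is not limited to the germline, since embryonic stem cells, mast cells and melanocytes also express it.

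The SSCs came from testes of male Oct4-EGFP pups from a cross of C57BL/6 females with DBA males (DBA/2 in the study's methods) in the first week after birth, and EGFP in these mice is driven by the Oct4 promoter. In the original condition the cells stayed in SSC medium with GDNF, bFGF, EGF and ESGRO, and single cells were taken by pipette from SSC-like and PSC-like colonies on days 0, 8, 10, 12, 14, 16, 18, 20, 23 and 27, giving 46 libraries with 4339 cells. The gPSC libraries, 1 at passage 1 and 1 at passage 15, came from the single line gPSC-1 in 2iL medium, and 1 library held mouse embryonic stem cells (ESCs). The scTrio-seq2 samples held 724 cells in 8 samples of 5C, which is SGC707, vitamin C, EGCG, Daphnetin and TUDCA, and 365 cells in 5 samples of DMSO, the solvent, both in the same SSC culture. The 5C samples were taken on days 12, 14 and 16, and the DMSO samples on days 20 and 24, with cells of day 0 in DMSO replicate 5, so that treatment and day of collection cannot be told apart. Neither the labels nor the titles say which libraries came from separate cultures or animals, and the p-values measure the spread between these libraries, which may be technical.

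UMI counts were summed per library and cluster wherever at least 5 cells were present. A level is given in CPM, the UMIs of a gene per 1000000 UMIs of the sum, with the sums scaled by edgeR's TMM method. Folds against a limit of 3 counts use UMIs without this scaling. A gene was called different when the adjusted p of edgeR's quasi-likelihood test over all genes was below 0.01 and the natural-log fold change was at least 1 in size. The libraries of the original condition held 15975410 to 34609591 UMIs, the 5C samples 5880774 to 10723044 and the DMSO samples 3888311 to 8059618, and no cell name was shared between libraries. The authors drew the clusters on these same transcriptomes, so that a difference between clusters describes how a gene varies with the clusters and the p gives its spread over libraries only. The sums of the markers Zbtb16, Dazl, Dmrt1 and Ddx4 were 1165 to 2495 CPM in SSC1-4 and 101 to 305 CPM in RPG3. The sums of Pou5f1, Nanog, Sox2, Utf1 and Esrrb were 23 to 242 CPM in SSC1-4 and 1307 to 1734 CPM in RPG3, so both cluster names matched their markers. The meiotic markers Spo11, Dpep3, Sycp1 and Sycp3 summed to 533 to 749 CPM in Meiotic 1, 604 to 758 CPM in Meiotic 2 and 390 to 1130 CPM in SSC1-4, a sum made up mostly of Sycp1 (528 CPM on average in SSC1-4). Spo11 had means of 9.02 and 11.3 CPM in Meiotic 1 and Meiotic 2 against 5.04 CPM in SSC1-4, and Dpep3 of 26.8 and 14.7 CPM against 12.9 CPM. Of the neural markers, Nr2f1 had means of 2.00 CPM in Neural 1, 8.96 CPM in Neural 2 and 168 CPM in Neural 3 against 1.07 CPM in SSC1-4, Foxp2 of 2.28, 2.17 and 76.6 CPM against 1.02 CPM, and Msx1 of 5.68, 5.58 and 3.34 CPM against 6.19 CPM. Nr2f1 and Foxp2 were thus far higher in Neural 3 than in Neural 1 and Neural 2, and Msx1 was not.

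Sequence is shown for the start regions of Sohlh1 and Stra8, because both genes fell in RPG2, RPG3 and RPG4 and because the motifs of the pathway can be read there. The windows are the 250 bases before the RefSeq start on GRCm38.p6, on the strand of the gene. Sohlh1 lies at chr2:25842995-25847248 on the minus strand (GENCODE vM21), and its window at chr2:25847249-25847498 overlaps no annotated gene. Capitals mark the E-box CACGTG, a core that basic helix-loop-helix factors can bind, and AGGTCA, the half-site of nuclear receptors such as the retinoic acid receptors. Stra8 lies at chr6:34920163-34939344 on the plus strand, and its window at chr6:34920698-34920947 lies in a 5′ untranslated exon of the longer GENCODE transcript, so only the stretch of 26 bases around each AGGTCA is given, at chr6:34920744-34920769 and chr6:34920900-34920925.
Sohlh1 window: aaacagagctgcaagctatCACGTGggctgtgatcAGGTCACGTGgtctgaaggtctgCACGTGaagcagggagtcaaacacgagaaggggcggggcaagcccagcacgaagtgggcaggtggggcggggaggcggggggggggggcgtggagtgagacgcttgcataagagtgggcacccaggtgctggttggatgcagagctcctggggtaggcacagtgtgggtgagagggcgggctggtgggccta
Stra8 upstream stretch: tggggtgaaaAGGTCAtcttgctcct
Stra8 downstream stretch: ctggggtaccAGGTCAgttttttacc

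The Sohlh1 window held CACGTG 3 times, with its first base 231, 211 and 192 bases before the start, and an AGGTCA 215 bases before the start that overlaps the middle E-box. The sequence CACGTG was found in 6.021% of 32851 start windows of the same length and 3 or more times in 20 of them, or 0.06088%. The Stra8 window held AGGTCA 194 and 38 bases before the start and no E-box of this kind. The half-site AGGTCA, searched on both strands, was found in 14.02% of the windows and 2 or more times in 1.358%. The windows of Kit, Sohlh2, Neurog3, Upp1 and Dmrtb1 held neither motif, and Sox3 was not matched. The looser E-box CANNTG was found in 66.22% of all windows. It was present for Sohlh1, Sohlh2, Neurog3, Upp1 and Dmrtb1 and absent for Kit and Stra8. The windows of Sohlh1 and Stra8 were shown because they held the motifs, so the shares over all windows do not measure how unusual they are. Matches are descriptions of letters and not of binding. In GENCODE vM21, Kit lies at chr5:75574916-75656722, Sohlh2 at chr3:55182028-55209957, Neurog3 at chr10:62133090-62134763 and Upp1 at chr11:9118103-9136170, all on the plus strand, and Sox3 at chrX:60891366-60893430 and Dmrtb1 at chr4:107676290-107684230 on the minus strand.

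Among the SSCs, Sohlh1, Sohlh2, Stra8 and Upp1 were present in every library and Neurog3 and Dmrtb1 were scarce in UMIs, which count molecules and do not scale with transcript length. Over the 36 libraries with at least 5 cells of SSC1-4, Sohlh1 was at 225 ± 87.5 CPM (SD, n = 36), with 88.1 as the lowest, 204 as the median and 423 as the highest library. Sohlh2 was at 149 ± 42.3 CPM, between 37.9 and 286 CPM. Stra8 was at 123 ± 73.3 CPM, with 23.1, 97.5 and 280 CPM as the lowest, median and highest library. Upp1 was at 100 ± 51.8 CPM over the same libraries. The smallest sums held few UMIs, with 9 of Upp1 and 19 of Stra8 in the 6 cells of day 18 replicate 4. Sox3 was at 27.4 ± 16 CPM and Kit at 14.1 ± 7.05 CPM. Neurog3 was at 1.06 ± 1.42 CPM, from 0 to 5.69 CPM, and came to 494 UMIs over all these sums. Dmrtb1 had a median of 3.66 CPM and a mean of 8.05 ± 24.6 CPM, and its highest value of 150 CPM was set by a single sum, day 16 replicate 1, with 8 cells and 111 UMIs.

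**Figure D1:**
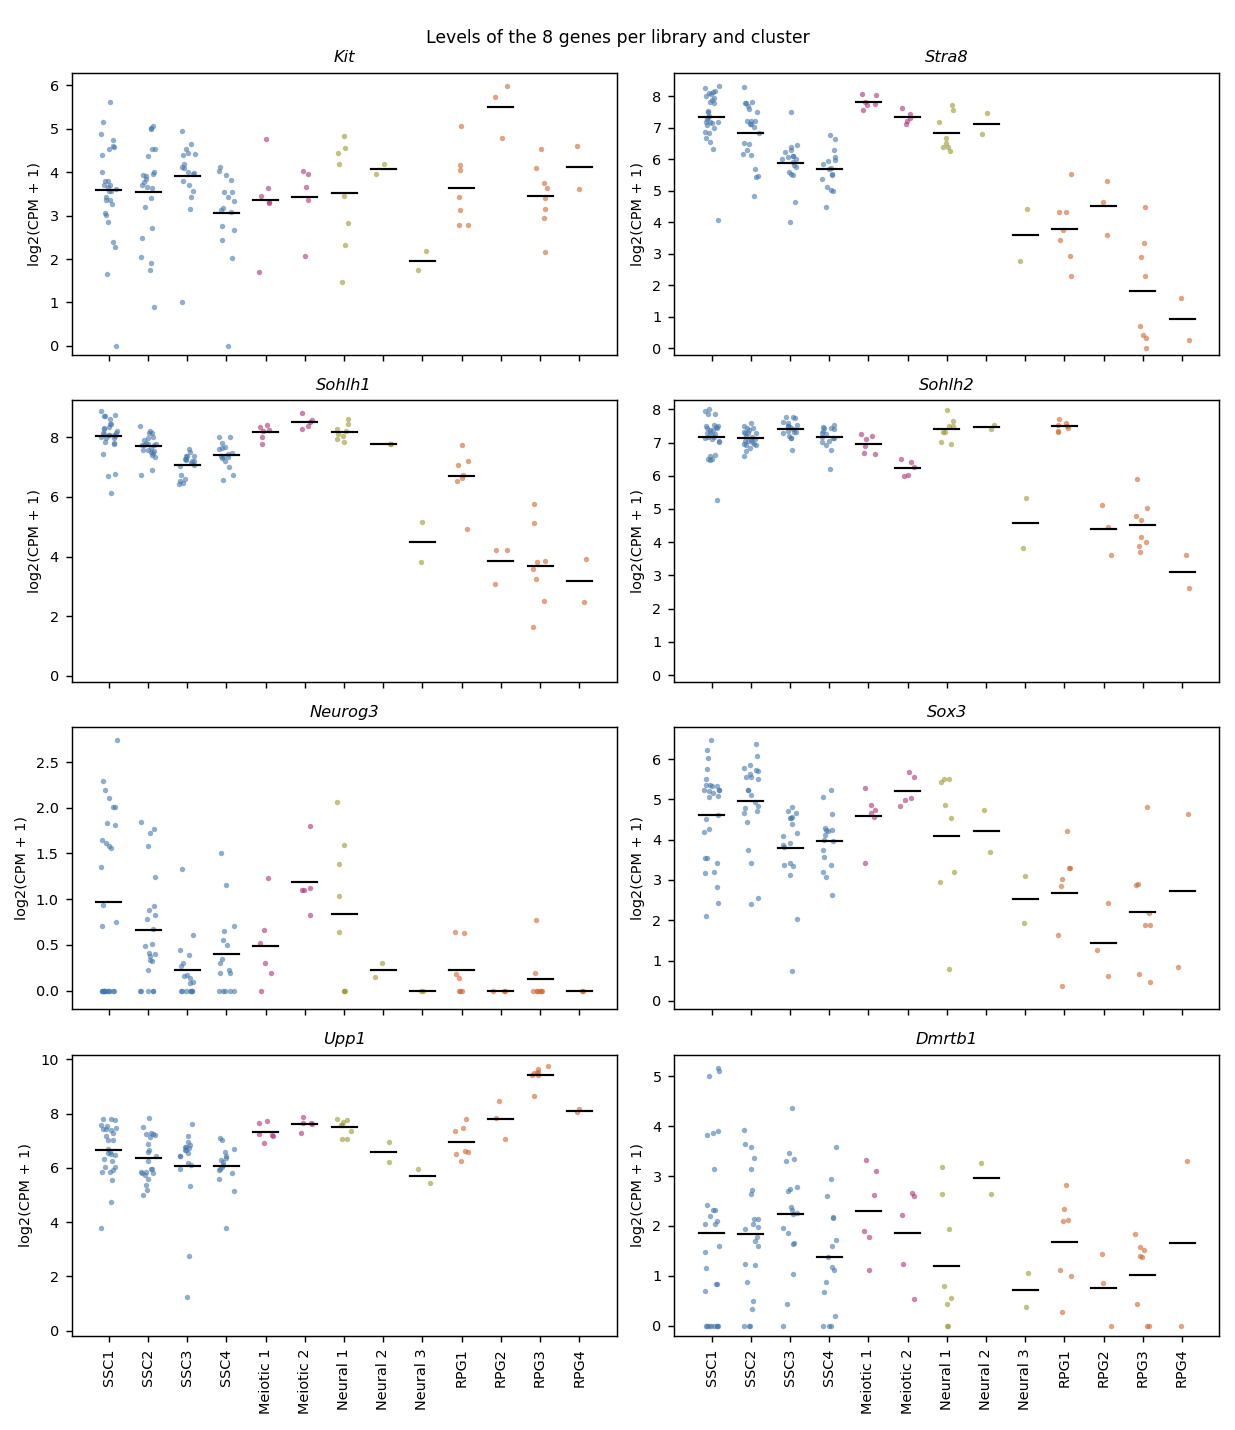
Levels of the 8 genes in each library and cluster on the log2(CPM + 1) scale, with clusters on the x axis, 1 point per library sum of at least 5 cells and a black bar for the mean of the log values. Sohlh1 and Sohlh2 fall to low values in RPG2, RPG3, RPG4 and Neural 3, Upp1 is highest in RPG3 (399.6 to 863 CPM), and Kit is highest in RPG2 (26.4 to 62.0 CPM).

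The 4 SSC clusters differed in Stra8. Stra8 was at 184 ± 77.7 CPM in SSC1 (SD, n = 28), 134 ± 73.1 CPM in SSC2 (n = 23), 65.4 ± 34.6 CPM in SSC3 (n = 18) and 55.2 ± 24.0 CPM in SSC4 (n = 16). The level stepped down from SSC1 to SSC4, with ranges that overlap between neighbours. It was lower in SSC3 than in SSC1 by 1.49 ± 0.20 on the log2 scale (a log2 fold change of -1.49, edgeR adjusted p = 9.95e-09), where 2.49% of all genes tested were called, and it was lower in 11 of the 11 libraries that held both clusters. In SSC4 the log2 fold change against SSC1 was -1.76 ± 0.20 (adjusted p = 1.51e-09, 1.71% of genes called), with a lower value in 8 of 9 shared libraries. With shared libraries as blocks, the changes were -1.26 (adjusted p = 0.00064) in SSC3 and -1.21 (adjusted p = 0.000832) in SSC4, both under the fold that a call needs. In batch B2 alone, with 2 libraries of SSC3 and 2 of SSC4, they were -0.88 (adjusted p = 0.634) and -1.46 (adjusted p = 0.38), and neither was called. Stra8 was the only member called in either comparison, among 7 members tested. Sohlh1 was also lower in SSC3 (-1.01 ± 0.14, adjusted p = 1.42e-08) and in 10 of 11 shared libraries, but the change was smaller than a call needs. In SSC2 no member was called against SSC1, where 0.38% of genes were. Neurog3 did not pass the filter on low counts in these fits. Its level was 1.41 ± 1.58 CPM in SSC1, where 12 of 28 libraries were at 0, and 0.201 CPM in SSC3. Of the genes of self-renewal, those called moved the other way from Stra8. Bcl6b and Lhx1, transcription factors downstream of GDNF, and the surface protein Tspan8 were higher in SSC3 than in SSC1 (log2 fold changes of 1.55, 1.64 and 1.82), 3 of the 9 genes of that list. In SSC4 these 3 genes and Etv5 were higher, with none of the 9 lower. Dhrs3, a reductase that lowers retinoic acid, was higher in both, by 1.55 in SSC3 and 1.82 in SSC4.

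Stra8 also varied with the day of culture over the pooled SSC clusters. In batch B1 of the authors' annotation, the SSC1-4 sums held 149, 167 and 220 CPM of Stra8 in the libraries of day 14 and 223, 255 and 280 CPM in those of day 18. They held 47.8 to 92.2 CPM, with a median of 73.6, on day 20 and 39.0 to 69.1 CPM, with a median of 49.7, on day 23. The libraries of days 20 and 23 did not overlap those of days 14 and 18. The log2 fold change of days 20 and 23 (13 libraries) against days 14 and 18 (6 libraries) was -1.81 ± 0.15 (edgeR adjusted p = 5.82e-09), and Stra8 was the only member called, where 1.28% of all genes were called and 0.149% were called lower. Sox3 (-0.93, adjusted p = 0.00194) and Sohlh1 (-0.69, adjusted p = 0.002) were below the fold of a call. Neurog3 was at 1.68, 1.26 and 0.256 CPM on day 14, 2.04, 2.75 and 3.1 CPM on day 18, 0.0678 to 0.471 CPM on day 20 and 0 to 1.28 CPM on day 23, so that the groups overlapped, and did not pass the same test (-2.60, adjusted p = 0.0115). Kit did not pass (-0.41, adjusted p = 0.21). On day 27 Stra8 was at 72.0 ± 24.9 CPM. Bcl6b, Etv5 and Tspan8 were called higher on the later days (2.03, 1.54 and 1.72), as was Dhrs3 (1.91). The mix of SSC clusters was not held fixed in this comparison, and batch B2 held 2 libraries of day 18, at 171 CPM (83 cells) and at 23.1 CPM (6 cells with 19 UMIs), beside 174, 253 and 122 CPM on day 14.

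**Figure D2:**
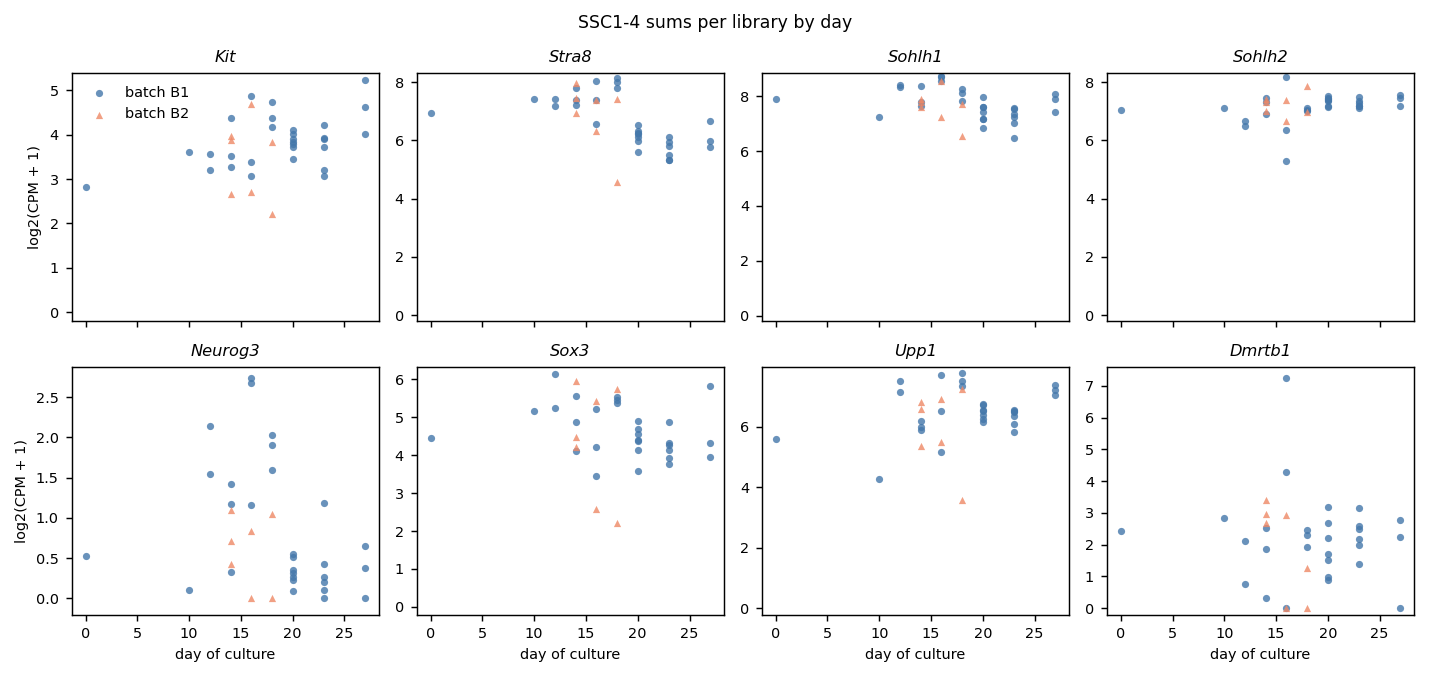
Levels in the SSC1-4 sum of each library by day of culture, with the day on the x axis, log2(CPM + 1) on the y axis and the batch of the annotation as the colour. In batch B1, Stra8 lies at 149 to 280 CPM on days 14 and 18 and at 39.0 to 92.2 CPM on days 20 and 23.

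In the meiotic clusters no member was called against SSC1-4, with 0.448% of all genes called in Meiotic 1 and 0.291% in Meiotic 2. Stra8, the gene of meiotic entry, was at 229 ± 31.1 CPM (SD, n = 6) in Meiotic 1, with values from 189 to 269 CPM and a median of 222, against 123 ± 73.3 CPM in SSC1-4, a log2 fold change of 0.90 ± 0.30 (adjusted p = 0.0664). In Meiotic 2 it was at 140, 157, 196, 148 and 172 CPM. These values lay within the range of SSC1-4. Stra8 was higher than in SSC1-4 in 4 of 5 shared libraries for Meiotic 1 and in 3 of 4 for Meiotic 2. Sohlh1 was at 334, 313, 449, 364 and 385 CPM in Meiotic 2 (0.70, adjusted p = 0.056), and in the 4 libraries that held both Meiotic 2 and SSC1-4 it was higher in 2 and lower in 2. Sohlh2 was at 88.9, 63.8, 75.8, 84.5 and 63.0 CPM in Meiotic 2 against 149 ± 42.3 CPM in SSC1-4. Its log2 fold change of -1.01 ± 0.19 passed the p (adjusted p = 0.00105) and not the fold, and it was lower in 3 of those 4 libraries. All libraries of both clusters were of day 16. The SSC1-4 sums of that day held 94.5 to 266 CPM of Stra8 in batch B1 and 79.4 to 166 CPM in batch B2. Of the wider lists, Gfra1 (-2.28), Nanos2 (-3.11) and Ret (-1.50), genes of the undifferentiated state, were called lower in Meiotic 1, as was Dhrs3 (-2.92), and none of the 9 genes of differentiation and meiotic entry was called in either cluster.

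In the reprogramming clusters RPG1 to RPG4 the members did not fall together. RPG1, with spermatogonial markers at 1244 to 1593 CPM, had neither Sohlh gene called. Sohlh2 was at 157, 181 and 209 CPM as the lowest, median and highest of 7 libraries (0.26, adjusted p = 0.334), and Sohlh1 at 29.1, 105 and 212 CPM (-0.93 ± 0.24, adjusted p = 0.0118). Stra8 was already low in RPG1, at 3.90, 12.6 and 45.0 CPM in the lowest, median and highest library, a mean of 16.6 ± 13.8 CPM. All 7 values lay below the median of SSC1-4, and the log2 fold change was -2.90 ± 0.42 (edgeR adjusted p = 6.08e-06). The fits of RPG1 to RPG4 took SSC1-4 libraries of all days together, with no term for the day. Stra8 in SSC1-4 of batch B1 had means of 71.4 CPM on day 20 and 51.3 CPM on day 23. The part of the day in these changes was not tested. Sox3 was at 7.28 ± 5.57 CPM, from 0.297 to 17.5 CPM, with a log2 fold change of -1.95 ± 0.41 (adjusted p = 0.00196). These 2 of the 8 members were called in RPG1, where 0.971% of all genes were. Both calls held within batch B1, with 5 RPG1 libraries. When the 2 libraries that held both RPG1 and SSC1-4 were used as blocks, the values were -1.82 (adjusted p = 0.1) for Stra8 and -3.08 (adjusted p = 0.584) for Sox3, and within batch B2, with 2 RPG1 libraries, -3.68 (adjusted p = 0.0618) and -1.34 (adjusted p = 0.705). Kit was at 13.4 ± 9.37 CPM in RPG1, with a log2 fold change against the SSCs of -0.06 (adjusted p = 0.949).

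In RPG2 and RPG3 the Sohlh genes were low as well. Sohlh1 was at 17.8, 17.5 and 7.55 CPM in the 3 libraries of RPG2 and at 2.09 to 53.7 CPM, with a median of 12, in the 8 of RPG3. None of these 11 values reached the lowest SSC1-4 library at 88.1 CPM. The log2 fold changes were -3.85 ± 0.42 (adjusted p = 1.14e-10) in RPG2 and -3.73 ± 0.35 (adjusted p = 1.49e-13) in RPG3. Sohlh2 was at 21, 11.1 and 33.8 CPM in RPG2 (-2.67 ± 0.32, adjusted p = 1.82e-09) and at 24.9 ± 15.2 CPM in RPG3 (-2.57 ± 0.22, adjusted p = 5.61e-15). Stra8 was at 11.1, 38.6 and 24.3 CPM in RPG2 (-2.20 ± 0.57, adjusted p = 0.00145) and at 0 to 21.6 CPM, with a median of 2.3, in RPG3 (-4.67 ± 0.54, adjusted p = 1.16e-10). The size of that fall in RPG3 varied, from -8.24 in batch B2 alone to -2.52 with the library as a block over 2 libraries, and it was called in both. Stra8 in RPG3 had a mean of 8.27 CPM in batch B1 and 0.326 CPM in batch B2. Sox3 was lower in both, at 0.539, 4.34 and 1.40 CPM in RPG2 (-3.56 ± 0.67, adjusted p = 2.06e-05) and 6.20 ± 8.71 CPM in RPG3 (-2.24 ± 0.45, adjusted p = 2.6e-05). Without RPG2 day 14 replicate 5, Stra8 in RPG2 had a log2 fold change of -1.96 (adjusted p = 0.0204) and was no longer called. The Sox3 call in RPG3 was lost with the library as a block (-1.96, adjusted p = 0.147) and in batch B2 alone (-2.78, adjusted p = 0.0163). In all, 5 of 8 members were called in RPG2, 4 of them lower, and 6 of 8 in RPG3, 5 of them lower, where 20% and 28.3% of all genes were called (10.9% and 17.4% lower). Set directly against RPG1, Sohlh1 and Sohlh2 were lower in RPG2 (-3 and -3.01, adjusted p = 0.000127 and 5.98e-07, 16.1% of genes called) and in RPG3 (-2.80 and -2.87, adjusted p = 7.54e-05 and 8.17e-09, 20.8% called). The Sohlh1 calls against RPG1 were lost in batch B2 alone, with 2 RPG1 libraries (-2.17, adjusted p = 0.0576, and -2.97, adjusted p = 0.036).

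Kit rose in RPG2 and was not called in RPG1, RPG3 or RPG4. Its 3 values in RPG2 were 52.3 and 26.4 CPM in day 14 replicates 5 and 6 and 62.0 CPM in day 12 replicate 2, against 14.1 ± 7.05 CPM and a highest library of 36.7 CPM in SSC1-4. The lowest RPG2 value thus lay inside the range of the SSCs and the other values above it. The log2 fold change was 1.85 ± 0.35 (edgeR adjusted p = 1.72e-05), the only rise called among the members in RPG2, where 9.05% of genes were called higher. All 3 libraries of RPG2 were of batch B2, and against the 7 SSC1-4 libraries of that batch the change was 2.1 with an adjusted p of 0.0112. With the library as a block it was 2.11 (adjusted p = 0.0149). Against RPG1 it was 1.84 ± 0.48 (adjusted p = 0.00619), and this call was lost without day 14 replicate 5 (1.70, adjusted p = 0.0282) or without day 12 replicate 2 (1.51, adjusted p = 0.0405), and in batch B2 alone it was 1.30 (adjusted p = 0.289), with 1 of the 2 RPG1 libraries there at 32.2 CPM. The tenth of RPG2 cells with the most Kit held 70.6% of its UMIs there, and the same share was 53.6% to 76.6% in the SSC clusters. Per cell and without TMM scaling, the median was 4.24 CPM in RPG2 and 0, 2.73, 5.78 and 0 CPM in SSC1 to SSC4. In RPG3 Kit was at 11.2 ± 5.88 CPM (-0.29, adjusted p = 0.38), and in RPG4 at 11.3 and 23.2 CPM. The pluripotent lines were higher, with 36 CPM in gPSC passage 1, 105 CPM in passage 15 and 100 CPM in the ESC library, 1 library each and so without a test. Of the markers of other Kit-positive cells, Pmel and Tyr were found, Tyr was at 0 in RPG2, and their sum was 17.8 to 36.8 CPM in RPG2 against 0.34 to 14.8 CPM in SSC1-4. In RPG3, where Kit was not called, the sum was 31.6 to 95.0 CPM. The part of cells with these markers in the Kit level was not tested. Kitl, the ligand of Kit, was higher in RPG2 than in RPG1 (5.58 on the log2 scale) and was not called in RPG2 against SSC1-4.

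Upp1 rose in RPG3, where 5 other members fell. Its levels there were 399.6, 729 and 863 CPM as the lowest, median and highest of 8 libraries, a mean of 708 ± 138 CPM, against 100 ± 51.8 CPM and a highest library of 219 CPM in SSC1-4. No library of RPG3 overlapped SSC1-4 or RPG4. The log2 fold change was 2.81 ± 0.22 (edgeR adjusted p = 1.22e-16), a fold of 7.02, and against RPG1 it was 2.4 ± 0.21 (adjusted p = 4.41e-09). RPG2 was at 132, 357 and 227 CPM (1.34 ± 0.37, adjusted p = 0.00245, under the fold of a call). RPG1 was at 132 ± 55.4 CPM. In RPG4, with 285 and 269 CPM in 2 libraries, Upp1 was called at 1.46 ± 0.43 (adjusted p = 0.0067), and this call was lost under 5 alternatives, among them without replicate 1 (1.37, adjusted p = 0.106) and without replicate 2 (1.48, adjusted p = 0.0798) of day 20. The pluripotent lines held 321 and 355 CPM in gPSC passages 1 and 15 and 402 CPM in ESCs.

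RPG4 was represented by 33 cells, with sums in day 20 replicates 1 and 2 only. Stra8 was at 2.01 and 0.197 CPM (-7.18 ± 1.14, adjusted p = 1.52e-06), Sohlh1 at 14.1 and 4.53 CPM (-4.69 ± 0.57, adjusted p = 4.66e-09) and Sohlh2 at 11.3 and 5.12 CPM (-4.26 ± 0.44, adjusted p = 3.1e-11). Both libraries lay below every SSC1-4 library for these 3 genes. With Upp1, 4 of 8 members were called in RPG4, where 16.2% of all genes were. Sox3 was at 23.8 and 0.788 CPM, with 3.64 to 69 CPM in SSC1-4, and did not pass the test. Sohlh1 was at 0 and 0.591 CPM in gPSC passages 1 and 15 and at 0 in ESCs, Stra8 at 0, 4.43 and 1.57 CPM, and Sox3 at 0 in ESCs. Sohlh2 kept 15.4 to 22.1 CPM in the gPSC libraries and 7.94 CPM in ESCs.

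Neurog3 and Dmrtb1 were too sparse for firm statements in the reprogramming branch. Neurog3 had 0 UMIs in RPG2, RPG4 and Neural 3, and against a limit of 3 counts over the sums of each cluster, SSC1-4 was at least 3.98-fold higher than RPG2, 2.1-fold higher than RPG4 and 4.29-fold higher than Neural 3. In RPG3, 6 of 8 libraries were at 0 (-2.89 ± 0.97, adjusted p = 0.00864), and this call was lost with no filter on low counts, with 10 cells per sum and in each batch alone. Dmrtb1 did not pass in any cluster comparison and was at 1.26 CPM in RPG3 (-2.40, adjusted p = 0.0109).

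**Figure D3:**
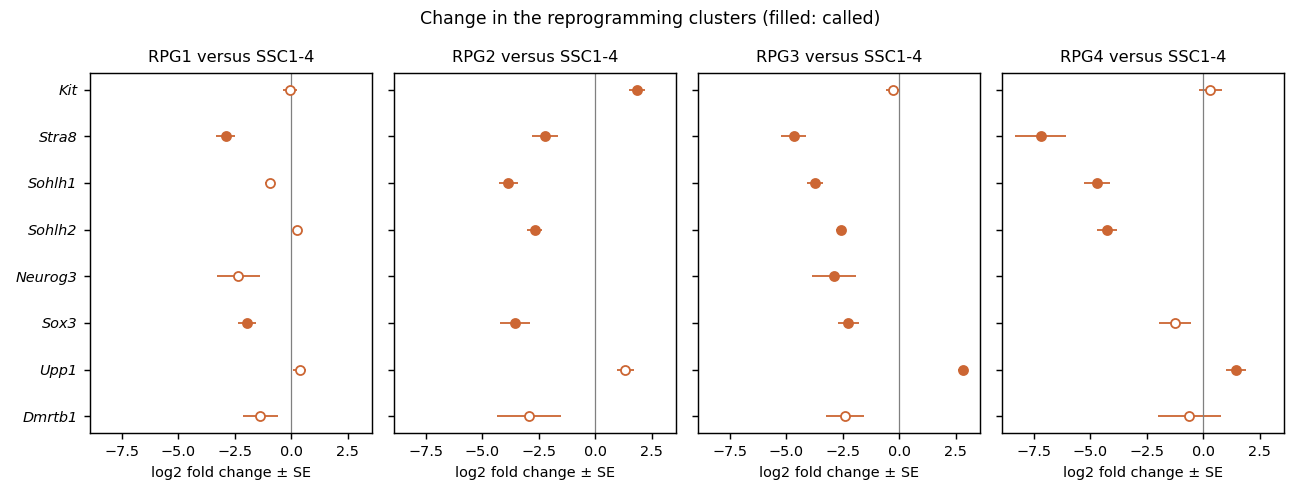
Log2 fold changes of the 8 genes in RPG1, RPG2, RPG3 and RPG4 against SSC1-4, with the SE as the bar, genes on the y axis and filled points for called changes. Neurog3 is left out for RPG2 and RPG4, where it has 0 UMIs, and Stra8 lies below 0 in every panel while Upp1 reaches 2.81 in RPG3.

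Lists of related genes were counted beside the members. The members had a median log2 fold change of -1.15 for RPG1, beside -0.03 over all genes tested, of -2.79 for RPG2, beside -0.27, of -2.48 for RPG3, beside -0.15, and of -2.75 for RPG4, beside -0.42. In RPG3, 8 of the 9 self-renewal genes were lower, among them Zbtb16 (-4.44), Gfra1 (-3.39) and Ret (-2.84), and Etv5 higher (1.94). Of the 9 genes of differentiation and meiotic entry, Ccnd2 (-2.77), Rec8 (-2.11), Rhox13 (-3.32) and the synaptonemal complex gene Sycp3 (-3.90) were lower in RPG3, and the de novo methyltransferase Dnmt3b was higher (2.78). Of the 4 progenitor genes, the receptor Rarg was higher (1.45) and Nanos3 lower (-3.63). Of 13 retinoic acid genes tested there, 4 were lower, the synthesis enzymes Aldh1a1 (-3.88), Aldh1a2 (-2.64) and Aldh1a3 (-2.04) and the binding protein Crabp1 (-1.57), and none was higher. In the same test 28.3% of all genes were called and 17.4% were lower. In RPG4 Cyp26a1, which degrades retinoic acid, was higher (5.72). In RPG1 only Lhx1 (1.57), Nanos3 (-1.60) and Crabp2 (-1.61) were called from all lists.

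The neural clusters fell into separate patterns. Neural 1 and Neural 2, whose spermatogonial markers were at 1244 to 1871 CPM, had no member called (0.627% and 0.0906% of genes called). Upp1 was at 182 ± 35.2 CPM in Neural 1 (SD, n = 8), higher than SSC1-4 in 8 of 8 shared libraries, with a log2 fold change of 0.86 and an adjusted p of 0.0214. Stra8 was also higher in 8 of 8 shared libraries and Sohlh1 in 7 of 8, while over all libraries their log2 fold changes were -0.01 (adjusted p = 0.985) and 0.39 (adjusted p = 0.174). Neural 3 held 61 cells of day 27 with sums in 2 libraries. There Kit was at 2.34 and 3.55 CPM (-2.27 ± 0.64, adjusted p = 0.00462), Stra8 at 5.80 and 20.5 CPM (-3.30 ± 0.78, adjusted p = 0.00074), Sohlh1 at 13.1 and 34.6 CPM (-3.27 ± 0.50, adjusted p = 7.23e-07), Sohlh2 at 13.1 and 39.0 CPM (-2.55 ± 0.38, adjusted p = 4.81e-07) and Sox3 at 2.85 and 7.64 CPM (-2.46 ± 0.72, adjusted p = 0.00565). These were 5 of 8 members, where 17.3% of genes were called. Without day 27 replicate 1, the calls of Kit, Stra8 and Sox3 were lost, and without replicate 2 those of Kit and Sox3. All 5 feeder markers (Col12a1, Col5a2, Ctgf, Col1a1 and Col3a1) were found in Neural 3, with sums of 812 to 937 CPM against 2.43 to 93.3 CPM in SSC1-4, and the 6 Sertoli and Leydig markers summed to 256 to 374 CPM against 2.43 to 58.0 CPM. Nearly all of that sum was Sox9 (a mean of 309.8 CPM against 8.94 CPM in SSC1-4), while Wt1 was at 1.54 CPM against 13.3 CPM, Star at 3.48 CPM against 2.41 CPM, Amh at 0.0508 CPM against 0.068 CPM, and Cyp11a1 and Insl3 at 0. The part of feeder or somatic cells in these values was not tested. Stra6, the retinol uptake receptor, was higher in Neural 3 (7.98), as were the receptor Rarb (4.53), Cyp26a1 (5.10) and Kitl (4.84). Neural 4, with 29 cells, had no library of 5 cells, and 72.2% of its 18 cells of sufficient depth held a Stra8 UMI and 94.4% a Sohlh1 UMI.

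At the level of single cells, shares of cells with at least 1 UMI were compared after each cell was thinned to 50000 UMIs. Stra8 was found in 83.8% of cells of SSC1, 78.6% of SSC2, 66.1% of SSC3 and 49.3% of SSC4. It was found in 22.8% of cells of RPG1, 33.3% of RPG2 and 6.69% of RPG3 (exact 95% interval 3.95% to 10.5%). In ESCs, a cell type that should lack it, the share was 2.33%. Without thinning the shares were 86.9% in SSC1, 74.7% in SSC4, 40.5% in RPG1 and 25.7% in RPG3. The fall of the Stra8 sums thus went with fewer cells holding a UMI. Sohlh1 was found in 30.7% of cells of RPG3 and 28.9% of RPG2, and in 0 of 77 gPSCs at this depth, which allows a share of thinned cells of up to 3.90% if the limit is set at 3 cells and of 4.68% by the exact interval, while 5 of 80 gPSCs (6.25%) held a UMI without thinning. Kit was found in 24.7% of cells of SSC1, 40.0% of RPG2 and 45.5% of RPG4, and in 61.0% of gPSCs and 90.7% of ESCs. Upp1 was found in every cell of RPG3 that was deep enough and in 80.2% of SSC1. Neurog3 was found in 8.12% of cells of SSC1 (6.16% to 10.5%), 5.62% of Meiotic 2 and 0 of 254 thinned cells of RPG3, which allows up to 1.18% by the same limit of 3 cells and 1.44% by the exact interval, while 2 of 261 cells held a UMI without thinning. Dmrtb1 was found in 2.22% to 10.6% of cells in every cluster, and the tenth of cells with the most Dmrtb1 held 91.2% to 100% of its UMIs in the SSC clusters. Intervals cover counting error only, and cells are not replicates. The median depth of a cell ranged from 166128 to 371213 UMIs over the libraries, which is why the thinned share is used for comparisons.

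**Figure D4:**
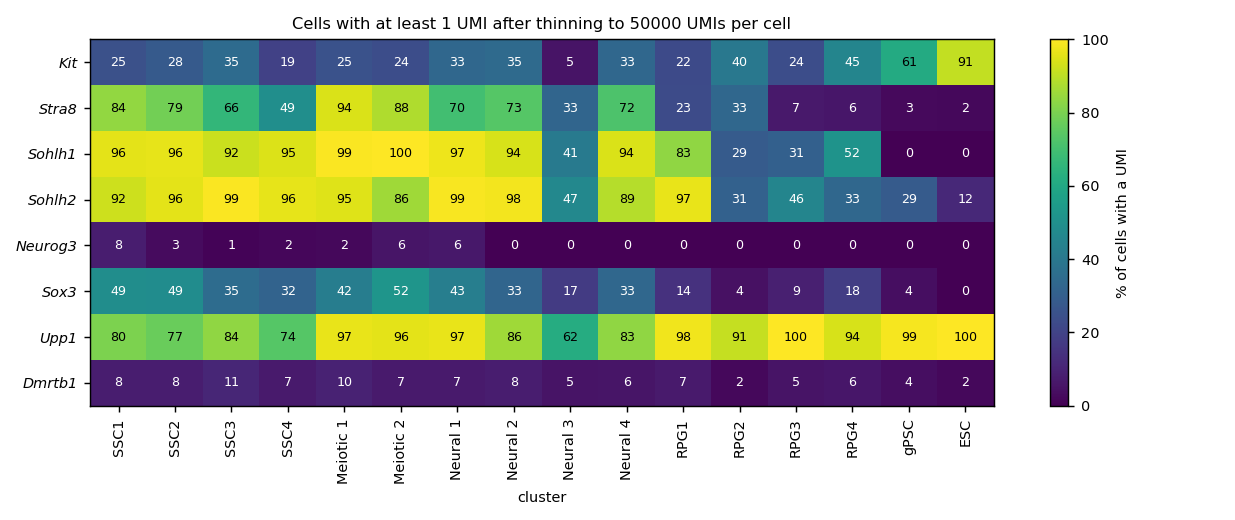
Share of cells with at least 1 UMI of each gene, in percent, after thinning to 50000 UMIs per cell, with clusters and the gPSC and ESC cells on the x axis and genes on the y axis. Stra8 declines from 83.8% in SSC1 to 6.69% in RPG3, and Upp1 reaches 100% in RPG3.

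Within a cluster the members overlapped in part in the same cells. Kit was found in 26.6% of SSC1 cells with a Stra8 UMI and 14.8% of those without, and the shares were 31.9% and 16% in SSC2, 40.3% and 24.6% in SSC3 and 24.4% and 14.5% in SSC4. Upp1 was found in 87.1% of SSC1 cells with a Sox3 UMI and 73.5% of those without, and in 71.3% and 74.8% in SSC4. These shares are descriptions of the same cells, with no test. Across the means of 13 clusters, Sohlh1 followed Stra8 (Pearson r = 0.909) and Sohlh2 (r = 0.906), Stra8 followed Sohlh2 (r = 0.802), and Kit and Upp1 had r = 0.424. The genes with the pattern most like Sohlh1, among 14079 compared, were X2010300C02Rik (0.994), Shcbp1l (0.992) and Fam46d (0.992), and for Sohlh2 they were Bnc1 (0.988), Gm43938 (0.987) and Kdm1b (0.983). For Stra8 they were Rtn1 (0.964), Asb9 (0.961) and Atg5 (0.954). For Upp1 they were Ephx2 (0.966), Stxbp2 (0.925) and Trpm3 (0.911), and for Kit they were Arvcf (0.939), Dennd1c (0.930) and Lyst (0.911). The clusters share libraries and the SSC clusters are alike, so that these 13 points are not independent.

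Under 5C, Upp1 was lower than under DMSO in the 3 classes of cells that were tested, SSC1-4, RPG1 and RPG3. In RPG2 cells, with a single DMSO sample and so no test, it was at 27.3, 145 and 269 CPM in 3 samples of 5C and at 199 CPM in DMSO replicate 2. Cells were grouped by the class that the authors predicted from the clusters above. In SSC1-4 cells Upp1 was at 5.95, 18, 7.7, 5.17, 14.8, 22.2, 15.4 and 21.6 CPM in 5C replicates 1 to 8, and at 111, 211 and 195 CPM in DMSO replicates 3, 4 and 5. The groups did not overlap, and the log2 fold change was -3.66 ± 0.32 (edgeR adjusted p = 2.15e-08, n = 8 and 3). In the same SSC1-4 sums the 5 feeder markers summed to 5.61 to 17.6 CPM under 5C and to 27 to 53.5 CPM under DMSO, without overlap, and their part in the differences between these cells was not tested. In RPG1 cells it was at 10.6, 18.9, 19.6 and 12.5 CPM in 4 samples of 5C and at 217 and 274 CPM in DMSO replicates 1 and 2 (-4.03 ± 0.38, adjusted p = 1.52e-06). In RPG3 cells it was at 123, 289, 225, 183, 55.3 and 163 CPM in 6 samples of 5C and at 1361 and 1367 CPM in DMSO replicates 1 and 2 (-2.97 ± 0.34, adjusted p = 4.72e-05). In RPG3 Upp1 was the only member called, where 2.4% of genes were. The rank of the classes was the same under each treatment, with RPG3 above SSC1-4 and RPG1. The difference between the change in RPG3 and that in SSC1-4 was 0.68 ± 0.52 (adjusted p = 0.466), and for RPG1 it was -0.31 ± 0.56 (adjusted p = 0.829), so that neither passed. Over all cells Upp1 was also called (-3.59 ± 0.70, adjusted p = 0.00451, 1.77% of genes called), but DMSO replicates 1 and 2 were mostly RPG3 cells (74 and 66) at 1290 and 1168 CPM, and without either the call was lost (-3.09, adjusted p = 0.0101, and -3.17, adjusted p = 0.0102).

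Dmrtb1 was higher under 5C in SSC1-4 and RPG1 cells. In SSC1-4 cells it was at 31.2, 31.7, 26.3, 18.5, 41.0, 26.4, 16.8 and 69.3 CPM in the 5C samples and at 5.48, 0.316 and 7.42 CPM in the DMSO samples. No 5C sample overlapped a DMSO sample, and the log2 fold change was 2.87 ± 0.55 (edgeR adjusted p = 0.000542). In RPG1 cells it was at 24.6, 55.5, 27.6 and 85.5 CPM under 5C and at 0 in both DMSO samples, at least 10.99-fold higher than a limit of 3 counts over both (adjusted p = 0.00415). Upp1 and Dmrtb1 were 2 of 8 members called in RPG1 cells, where 0.973% of genes were, and the Dmrtb1 call was lost without either DMSO sample (highest adjusted p = 0.032) or without 5C replicate 2, 5 or 8. In RPG3 cells it was at 3.94 ± 2.06 CPM under 5C and at 2.35 and 2.05 CPM under DMSO, and did not pass.

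Sohlh1 and Sox3 were lower under 5C in the SSC1-4 cells, a class whose mix differed between the treatments. The DMSO replicates 3 to 5 held 3 cells of SSC3 and none of SSC4, while each sample of 5C held cells of both. Sohlh1 was at 87.6, 118, 94.6, 96.4, 26.2, 86.0, 143 and 50.2 CPM under 5C and at 304, 239 and 253 CPM under DMSO (-1.55 ± 0.25, adjusted p = 8.46e-05). Sox3 was at 21, 6.67, 17.2, 5.57, 6.83, 0.601, 9.82 and 10.3 CPM under 5C and at 50.3, 82.6 and 50.4 CPM under DMSO (-2.57 ± 0.43, adjusted p = 0.000122). All 8 samples of 5C lay below all 3 of DMSO for both genes. With Upp1 and Dmrtb1 these were 4 of 8 members, where 4.98% of genes were called (2.45% higher and 2.53% lower). Within cells of class SSC1 alone (202 cells of 5C and 122 of DMSO) Upp1 (-3.87, adjusted p = 9.46e-09) and Sox3 (-2.62, adjusted p = 0.00124) were called, where 3.35% of genes were. Sohlh1 was at 23.8 to 188 CPM under 5C and 258 to 357 CPM under DMSO in these SSC1 cells (-1.40, adjusted p = 0.0018), just under the fold of a call, and Dmrtb1 did not pass (2.71, adjusted p = 0.012). In SSC1-4 cells Sohlh2 was at 137 to 229 CPM under 5C and at 112, 130 and 125 CPM under DMSO (0.62, adjusted p = 0.00855), under the fold of a call. Stra8 was at 5.33 to 29.1 CPM under 5C and at 17.2, 25.6 and 17 CPM under DMSO, and Kit at 0.395 to 10.3 CPM against 14.3, 12 and 13.3 CPM (-1.43, adjusted p = 0.145), and neither passed. The self-renewal genes Bcl6b (2.26), Etv5 (3.35), Id4 (1.78) and Lhx1 (4.83) were higher in the same cells, 4 of 9 with none lower. Within SSC1 cells alone Bcl6b (2.08), Etv5 (3.47) and Lhx1 (5.57) were called higher and Id4 was not (1.69, adjusted p = 0.0113). In SSC1-4 cells Ccnd2 (2.64), Meioc (2.13) and Ythdc2 (1.65), the latter pair acting at meiotic entry, were higher too, and of these Ccnd2 alone (2.64) was called within SSC1 cells. Of 11 retinoic acid genes tested in SSC1-4 cells, 1 was called higher and 1 lower. Within SSC1 cells only Crabp1 of that list was called, and it was lower (-3.41, adjusted p = 1.33e-07).

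The change under 5C was also compared between classes. In RPG3 cells Sohlh1 was at 14.1, 15.2, 4.21, 9.28, 10.1 and 10.3 CPM under 5C and at 6.01 and 0.770 CPM under DMSO, and the difference in RPG3 itself was not called. The difference of the log2 fold changes, RPG3 minus SSC1-4, was 3.14 ± 0.66 (edgeR adjusted p = 0.00172) in a test in which 9.57% of genes had an adjusted p under 0.05. It was 3.59 ± 1.12 for Kit (adjusted p = 0.0367), above the 0.01 of a call. The 19 sums came from 13 samples, and 6 samples of 5C gave a sum of each class, which this fit takes as independent. With the sample as a random block in limma voom, the difference was 3.62 for Sohlh1 (adjusted p = 0.0322) and 4.05 for Kit (adjusted p = 0.00541), so that neither was under 0.01 in both fits. Without the block, limma voom gave adjusted p of 0.0397 and 0.00569 for the same genes. Sox3 had 0 to 5 UMIs in each 5C sample of RPG3 cells (0 to 2.3 CPM) and 1 UMI in each DMSO sample (0.261 and 0.257 CPM), and its change was not compared between these classes. In RPG3 cells Kit was at 21.3, 47.3, 15.3, 6.19, 12.4 and 25 CPM under 5C and at 6.01 and 3.33 CPM under DMSO, a change that by itself did not pass (2.17, adjusted p = 0.0632). Between RPG1 and SSC1-4 none of the members had a difference under 0.05, where 1.66% of genes did. SSC1-4 and RPG3 cells came from different DMSO samples. Spermatogonial markers of the RPG3 cells summed to 142 to 417 CPM under 5C and to 76.4 to 98.8 CPM under DMSO, and pluripotent markers to 1555 to 2135 and 2789 to 2819 CPM. Their part in these differences was not tested.

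**Figure D5:**
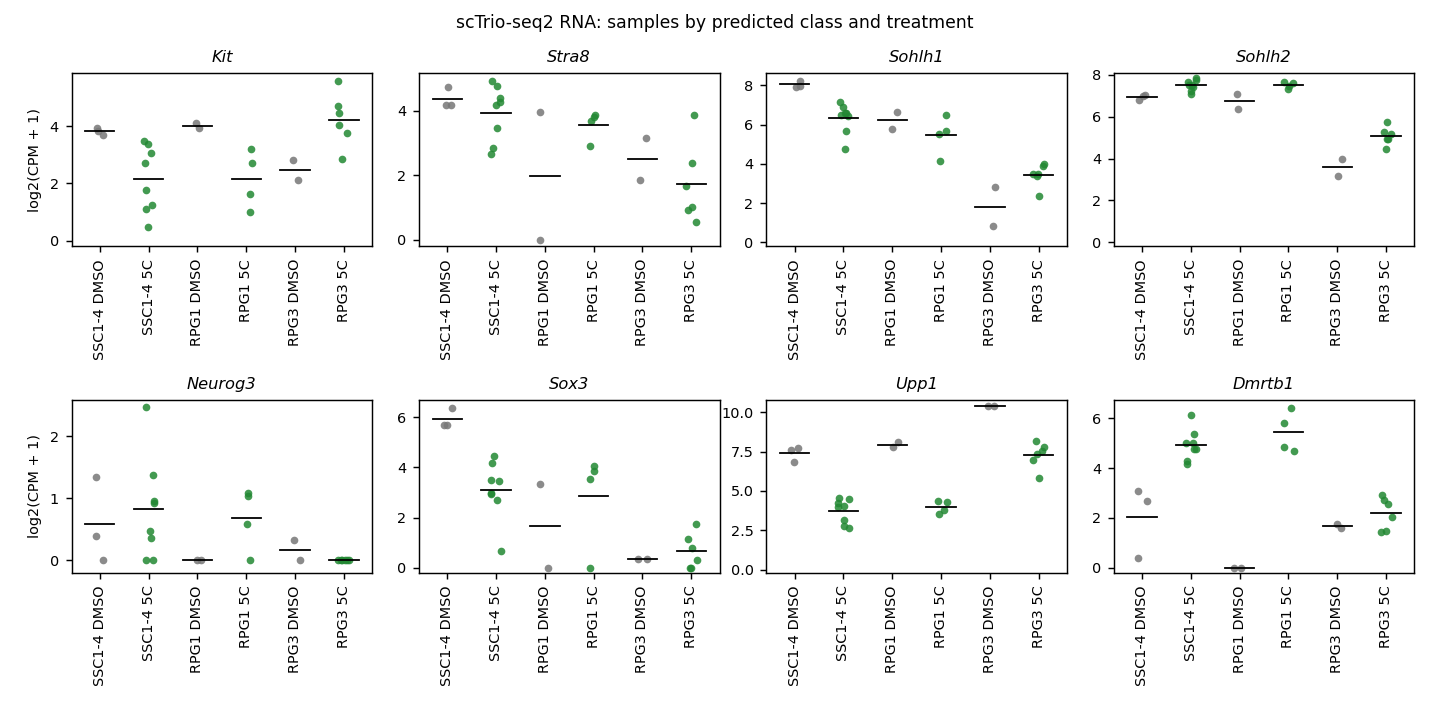
Levels of the genes in each scTrio-seq2 sample by predicted class (SSC1-4, RPG1 and RPG3) and treatment, with log2(CPM + 1) on the y axis, 1 point per sample and a black bar for the mean of the log values. Upp1 is lower under 5C in all 3 classes, and Sohlh1 is lower under 5C in SSC1-4 and not in RPG3.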

How the data were processed

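For both assays the deposited tables hold unnormalised UMI counts of each gene in each cell, made with UMItools, STAR v2.7.2b on mm10 and featureCounts v2.0.0 per the labels and methods, together with the cluster, batch and library of each STRT-seq cell. Their filtered cells, clusters and scPred classes were used unchanged. The members and lists were chosen with earlier results of these data known.

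Counts were summed per library and cluster (at least 5 cells), scaled by TMM, filtered with filterByExpr and tested with glmQLFit and glmQLFTest of edgeR v4.0.16 in R v4.3.3, with Benjamini-Hochberg adjustment over all genes. Calls needed an adjusted p below 0.01 and a change of at least 1 on the natural-log scale. The 5C and DMSO tables were joined over the union of 17042 and 16052 genes, with absent genes as 0. The RPG2 and RPG3 tests against RPG1 and the test of differences between classes were added after the data were seen. Named genes were the 8 members in every comparison, called members of the lists, and the 3 genes nearest in pattern to each member. The lists were self-renewal, progenitor, differentiation and meiotic entry, retinoic acid and Kitl. Alternatives were limma v3.58.1 voom with the sample as a random block (added after the data were seen), DESeq2 v1.42.0, its size factors, no filter, 10 cells per sum, each batch, blocks and leaving out libraries. The edgeR tests were tested on simulated data. The summed neural marker list is not reported here, and methylomes were not analysed here.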

Additional observations from a re-analysis of the deposited data

Results flagged for a closer look

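For normally distributed values, Dixon's criterion is met by chance alone in about 1 group in 20. This rate need not hold for CPM, which is bounded at 0. By Dixon's criterion, the highest or lowest value stood apart from the others in 14 of 87 groups of 4 to 10 libraries or samples. In the cluster sums these were Neurog3 in Meiotic 2 (day 16 replicate 5, 2.48 CPM against 0.772 to 1.17), Kit in RPG1 (day 18 replicate 5, 32.2 CPM against 5.84 to 16.8) and Stra8 in RPG1 (day 23 replicate 2, 45.0 CPM against 3.90 to 19.1). In RPG3 they were Stra8 (day 20 replicate 8, 21.6 CPM against 0 to 9.08), Sox3 in the same library (27 CPM against 0.391 to 6.49), Neurog3 (day 20 replicate 1, 0.709 CPM against 0 to 0.144), Sohlh2 (day 23 replicate 2, 58.3 CPM against 11.9 to 31.7) and Upp1 (day 12 replicate 2, 399.6 CPM against 687 to 863). In all cells of the 5C samples they were Sohlh2 (replicate 5, 75.2 CPM against 135 to 180), Upp1 (replicate 5, 154 CPM against 7.02 to 56.2) and Dmrtb1 (replicate 8, 48.7 CPM against 9.92 to 28.1). In SSC1-4 cells under 5C they were Neurog3 (replicate 5, 4.55 CPM against 0 to 1.59) and Dmrtb1 (replicate 8, 69.3 CPM against 16.8 to 41.0), and in RPG3 cells under 5C Stra8 (replicate 3, 13.5 CPM against 0.461 to 4.21). 5C replicate 5 held 54 cells predicted as RPG3 and 15 as SSC1-4.

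The log2 fold changes under 5C in RPG3 cells less those in SSC1-4 cells were 3.14 for Sohlh1 and 3.59 for Kit, with adjusted p of 0.00172 and 0.0367 in the edgeR test of the difference, where 9.57% of genes were under 0.05. With the sample as a random block in limma voom the adjusted p were 0.0322 and 0.00541.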

How the results depend on the processing

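Of 40 member calls in 19 comparisons, 20 were kept under every alternative tried and 20 were lost under at least 1. No change of a called member reversed, and 131 of 159 counts of members stayed within 1.5 times the main count. The counts that moved were the following. At an adjusted p under 0.05 with no fold threshold, 1 member passed in Meiotic 2, Neural 1 and SSC2, 3 in SSC3, 4 in SSC4, 4 between days and 2 in 5C RPG3 cells. With the library as a replicate block, 0 passed in RPG1, SSC3 and SSC4. In batch B2 alone, 0 passed in RPG1, SSC3 and SSC4 and 1 in RPG2 against RPG1. With no filter, 2 passed in SSC3. With SSC1 cells alone, an alternative chosen after seeing the data, 2 passed in place of 4 in 5C against DMSO. With DESeq2, 2 passed between days and 2 in 5C RPG3 cells. Leaving out a library gave 2 to 3 in Neural 3 and 1 to 2 in 5C against DMSO, both over all cells and in RPG1 cells. Replicate numbers of 5C and DMSO did not pair the samples (correlations of deviations of 0.35, -0.52, 0.26, 0.44 and -0.54), and the replicate block over all cells left 0 members. The pairs of gene and cluster with a UMI in over 50% of cells numbered 48 after thinning and 75 without it. The causes were not tested. Neurog3 came to 494 UMIs over the 36 sums of SSC1-4, which limits its precision.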
